A study of Danio rerio with 3 samples.

Results

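The basement membrane genes described here are 8 zebrafish genes: the type IV collagen chains col4a1 and col4a2, the laminin chains lama4, lama5, lamb1a and lamc1, the nidogen nid1b, and the matricellular gene postnb. They were listed by symbol, and all 8 are among the 19831 genes of the deposited count table. Their counts were read in 88 single cells with 500 or more detected genes, of 93 cells in the table. The description covers which cells held them, how col4a1 was paired with col4a2, and how their levels differed by cdh5 state. cdh5 encodes VE-cadherin, the adhesion protein of endothelial junctions. A cell was called cdh5-holding with 1 or more cdh5 counts and cdh5-lacking with 0.

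A basement membrane is the thin sheet of matrix on which endothelium and epithelium rest. Type IV collagen forms its covalent network, with chains of the col4a1 and col4a2 products wound together in 1 triple helix. Laminin is a trimer of an alpha, a beta and a gamma chain, and nidogen links the laminin sheet to the collagen network. Endothelial cells make their own basement membrane, in which laminin alpha 4 and alpha 5 are the known vascular alpha chains in mammals. Periostin is a secreted matrix protein known from fibroblasts and healing or developing connective tissue in mammals.

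The cells came from the trunk of embryos at 36 hours post fertilization that carried a GFP reporter under spi2 control (Gal4 with UAS:GFP) and an mCherry reporter under kdrl control. The 2 libraries used, DP 1 and DP 2, are listed in the deposited cell table as kdrl+spi2+ cells, the sort meant to capture hemogenic endothelium. STRT-seq, in which each sorted cell is handled in its own well, gave the transcript counts. The kdrl-spi2+ library was not analysed here, and no group carried a mutation or a drug in the labels.

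DP 1 gave 53 kept cells with 15439 to 903548 counts each (median 134394), and DP 2 gave 35 with 4818 to 379006 (median 58292). The sort gene kdrl was held by 15 cells in each library and cdh5 by 6 in DP 1 and 5 in DP 2, so most cells sorted on the endothelial reporter had no count of either transcript. Of the kept cells, 32 cell barcode numbers occur in both libraries, and 0 cells had identical counts. Whether DP 1 and DP 2 were made from separate pools of embryos is not stated in the labels, so p-values measure only the spread between these samples, and that spread may be technical.

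In 88 cells the members were sparse. postnb was held by 22 cells, lamb1a by 21, lama4 by 17, lama5 by 13, col4a2 by 9, col4a1 by 6, nid1b by 3 and lamc1 by 1. Altogether 50 cells held at least 1 of the 8 genes (56.8%), 26 of 53 in DP 1 and 24 of 35 in DP 2. Cells with a member were deeper: the median total in DP 1 was 163860 for cells with a member and 96986 for cells with none, and in DP 2 it was 82331 and 37027. When each cell was thinned to 20217 counts in 1 random draw, 22 of 79 cells held a member (27.8%). Gene lengths are not given in the files, so levels of different genes are not compared here.

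**Figure D1:**
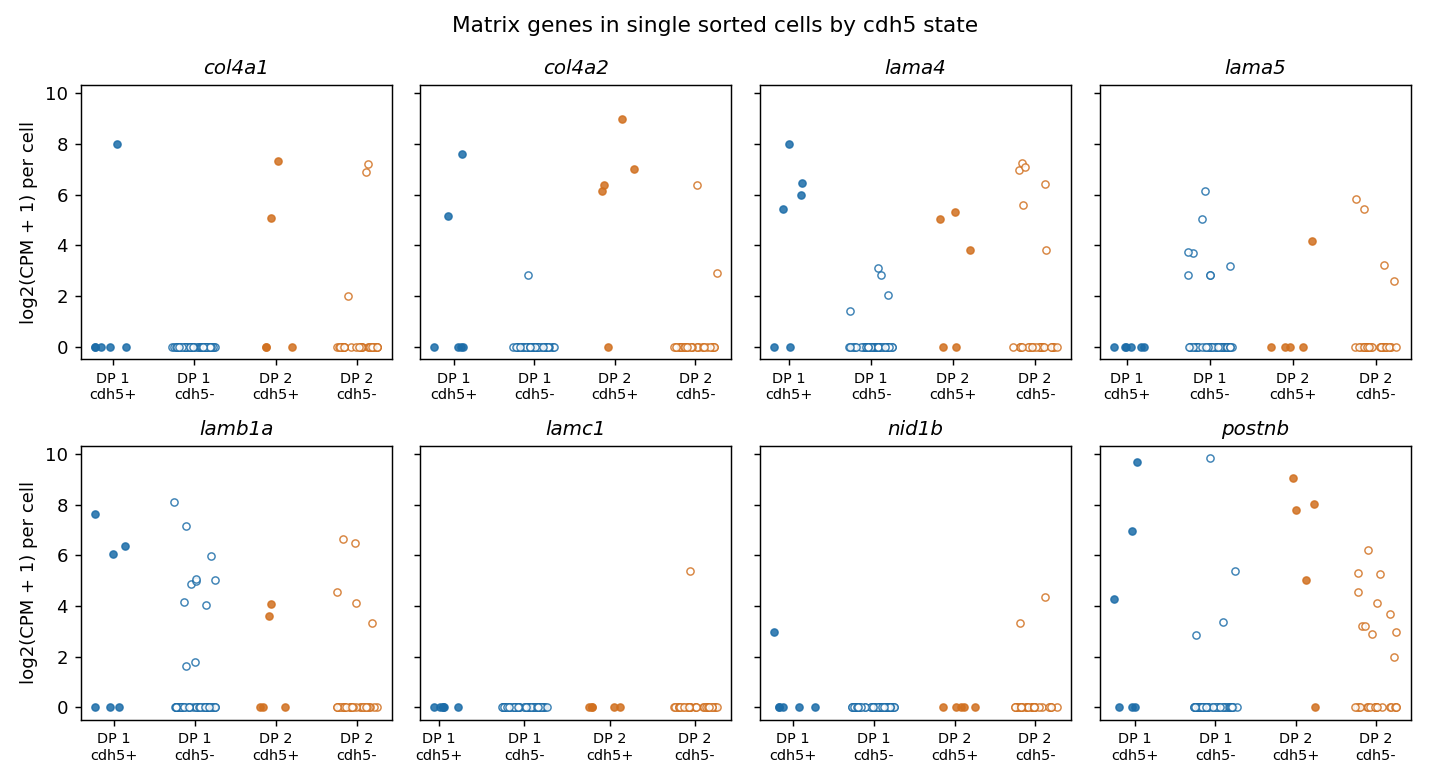
Level of each of the 8 matrix genes in each kept cell, as log2(CPM + 1), by library and cdh5 state (cdh5+, 1 or more cdh5 counts, filled; cdh5-, 0 counts, open; points are single cells, jittered sideways). col4a2 is above 0 in 6 of 11 cdh5-holding cells and 3 of 77 cdh5-lacking cells, and lamc1 is above 0 in 1 cell.

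Among the collagens, col4a1 was found in few cells and at its highest count in 1 of them. In DP 1 it was held by 1 cell, cell 50, with 74 counts of that cell's 292236. In DP 2 it was held by 5 cells, with 18 counts in cell 5, 10 in cell 27, 6 in cell 35, 5 in cell 36 and 1 in cell 30. Of these DP 2 cells, cells 27 and 35 held cdh5 and the others did not. Summed over cells, col4a1 stood at 69.9 CPM, the count scaled to a common total of summed counts, in the 6 cdh5-holding DP 1 cells and at 0 in the 47 cdh5-lacking ones. With a floor of 3 counts over the group this is 191-fold higher, with counting error in the 74 counts left out. In DP 2 it stood at 22.9 and 9.93 CPM, a ratio of 2.31 (exact 95% interval 1.15 to 4.53, counting error only). The DP 1 difference rests on cell 50: without the deepest cdh5-holding cell of each library, cdh5-holding DP 1 cells also had 0 col4a1 counts. The DP 2 levels were then 50.2 against 9.93 CPM, since the cell left out there had 0 col4a1 counts.

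col4a2, whose product joins that of col4a1 in the collagen trimer, was held by more of the cdh5-holding cells. In DP 1 the cdh5-holding cells 49 and 50 had 26 and 10 counts, and the other 4 had 0. In DP 2 the cdh5-holding cells 7, 19, 27 and 35 had 29, 26, 8 and 15 counts, and the other cdh5-holding cell, cell 12, had 0 in a total of 15094. Among the 77 cdh5-lacking cells, 1 count was seen in DP 1 cell 24, 1 in DP 2 cell 13 and 10 in DP 2 cell 5. The cdh5-holding cells with col4a2 thus had 8 to 29 counts, and of the cdh5-lacking cells DP 2 cell 5 alone reached that range. The summed level was 34.0 against 0.122 CPM in DP 1 and 112 against 4.55 CPM in DP 2. The ratio was 278 in DP 1, where the interval of 46.8 to 11284 rests on 1 count in the cdh5-lacking cells, and 24.6 in DP 2 (13.0 to 51.3). After thinning, with cdh5 state set anew from the thinned counts, 5 of 9 cdh5-holding cells and 0 of 70 cdh5-lacking cells held col4a2. DP 2 cell 5, with 10 counts before thinning, kept none in the 1 random draw made. A share of up to 4.29% is allowed by 0 of 70.

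**Figure D2:**
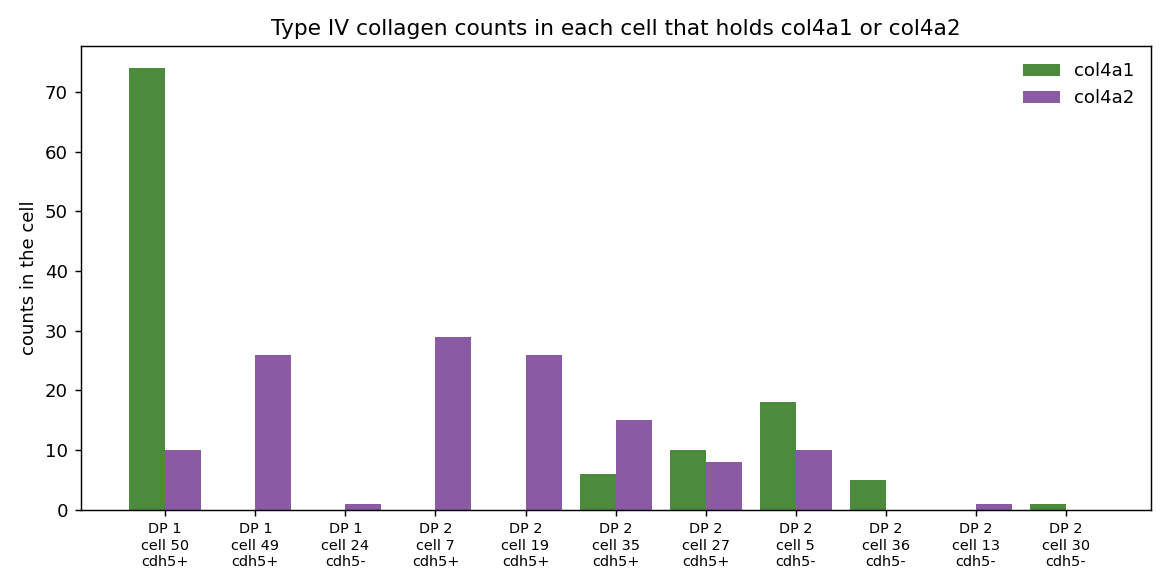
Counts of col4a1 (green bars) and col4a2 (purple bars) in each of the 11 cells that hold either gene, labelled by library, cell and cdh5 state. Cells 50 of DP 1 and 5, 27 and 35 of DP 2 hold both, and DP 1 cell 50 alone has more than 29 counts of either gene.

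The paired type IV collagen genes were found together in 4 cells, col4a1 alone in 2, col4a2 alone in 5 and neither in 77. Of the 6 col4a1 cells 66.7% also held col4a2, against 10.2% of all cells. Of the 9 col4a2 cells 44.4% also held col4a1, against 6.82% of all cells. Among the cdh5-holding cells alone, col4a2 was held by 6 of 11 (54.5%) and col4a1 by 3 of 11 (27.3%). Whether the pairing goes beyond a shared cdh5 state was not tested. Counting a gene as held from 3 counts on, 4 cells held both, 1 held col4a1 alone and 3 held col4a2 alone. In thinned cells 1 held both, while 3 held col4a1 alone and 4 held col4a2 alone. The part of depth in this, and of the random draw, was not tested. In RefSeq's annotation of GRCz12tu, col4a1 and col4a2 are next to each other, between irs2b and rab20.

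Where both collagen genes were found, their proportion differed from cell to cell. The shares below are of counts, not corrected for the length of either gene, and serve only to compare cells. col4a1 made up 88.1% of the pair's counts in DP 1 cell 50 (exact Clopper-Pearson 95% interval 79.2 to 94.1). It made up 64.3% in DP 2 cell 5 (44.1 to 81.4), 55.6% in DP 2 cell 27 (30.8 to 78.5) and 28.6% in DP 2 cell 35 (11.3 to 52.2). The interval of cell 50 does not overlap those of cells 27 and 35. In DP 1 cell 49 and DP 2 cell 19 none of 26 pair counts was col4a1, with an upper bound of 13.2%, and in DP 2 cell 7 none of 29, with an upper bound of 11.9%. These 3 cells held cdh5, and their upper bounds lie below the lower bounds of cells 50, 5 and 27. The intervals express counting error alone, and counts here need not stand for separate molecules.

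Of the laminin alpha chains, lama4 was held by 7 of 11 cdh5-holding cells and lama5 by 1. In DP 1 the cdh5-holding cells 6, 17, 49 and 50 had 9, 10, 34 and 25 lama4 counts and cells 51 and 55 had 0. Of the 47 cdh5-lacking DP 1 cells 4 held lama4, with 1 count each. In DP 2 the cdh5-holding cells 19, 27 and 35 had 5, 2 and 7 counts, and 6 of 30 cdh5-lacking cells had 2 to 15. The DP 2 ranges overlap, and its highest cell, cell 5 with 15 counts, had no cdh5 count. The summed level was 73.7 against 0.489 CPM in DP 1, a ratio of 151 (56.5 to 567). In DP 2 it was 20.1 against 15.3 CPM, a ratio of 1.31 whose interval of 0.655 to 2.48 includes 1.

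lama5, the other vascular alpha chain, was found at low counts in both states. It was held by 1 of 11 cdh5-holding cells (9.09%, exact Clopper-Pearson 95% interval 0.230 to 41.3) and by 12 of 77 cdh5-lacking cells (15.6%, 8.32 to 25.6), and the intervals overlap. Of these 13 cells, 10 had 1 or 2 counts. The highest were DP 1 cells 42 and 47 with 11 counts each, and DP 1 cell 42 was the deepest of all with 903548 counts. In DP 1 the cdh5-holding cells had 0 lama5 counts, which allows up to 2.83 CPM, against 4.40 CPM in the cdh5-lacking cells. With a floor of 3 counts over the group this is 1.55-fold lower, with counting error in the cdh5-lacking cells left out. The exact Poisson 95% intervals were 0 to 3.49 and 3.08 to 6.10 CPM. They overlap between 3.08 and 3.49 CPM. Such an overlap does not decide whether the levels differ, and no interval of the DP 1 ratio was made. In DP 2 the levels were 1.43 and 2.48 CPM, a ratio of 0.578 with an interval of 0.0126 to 4.76, so no difference was detectable at that depth. Summed over both libraries the ratio was 0.144, with an interval of 0.00355 to 0.845 for counting error only. That interval lies below 1 but rests on 1 count in cdh5-holding cells. After thinning, lama5 was left in 2 cells.

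The laminin beta chain lamb1a was held by 16 of 77 cdh5-lacking cells. Its summed level before thinning differed in direction by cdh5 state between the libraries. The cdh5-holding DP 1 cells 17, 49 and 50 had 32, 11 and 19 counts, and 11 of 47 cdh5-lacking DP 1 cells had 1 to 29 (median 4). The cdh5-holding DP 2 cells 27 and 35 had 1 and 2 counts, and 5 of 30 cdh5-lacking DP 2 cells had 1 to 15 (median 3). The summed level was 58.6 against 9.30 CPM in DP 1, a ratio of 6.30 (4.43 to 8.93). In DP 2 it was 4.30 against 10.8 CPM, a ratio of 0.400 (0.0775 to 1.305). That ratio rests on 3 counts in cdh5-holding cells, and its interval includes 1. After thinning, lamb1a was higher in cdh5-holding cells of both libraries. The thinned ratio was 3.86 in DP 1 (1.21 to 10.7) and 1.56 in DP 2 (0.0317 to 15.8), the latter from 1 cdh5-holding count. No direction is thus established in DP 2. The difference between the libraries was not tested.

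The common gamma chain lamc1, which most laminin trimers contain, had 5 counts in DP 2 cell 5 and 0 in the other kept cells. In DP 1, 0 of 53 cells allows a share of up to 5.66%. RefSeq places lamb1a next to lamb4. lamb4 was found in 0 cells, while lama1 was found in 1 cell with 10 counts and lamb1b in 2 cells. Among the members, an alpha, a beta and a gamma chain were found together in DP 2 cell 5 alone, with 15 lama4, 2 lamb1a and 5 lamc1 counts.

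nid1b, a nidogen gene that RefSeq's annotation of GRCz12tu lists as a transcribed pseudogene, was found in 3 cells. DP 1 cell 50 had 2 counts, and DP 2 cells 13 and 30 had 3 each. The first held cdh5 and the others did not, and all 3 also held postnb. At these counts no difference by cdh5 state was detectable.

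postnb, which encodes a periostin, was held by 7 of 11 cdh5-holding cells and 15 of 77 cdh5-lacking cells, and most of the latter had 1 or 2 counts. In DP 1 the cdh5-holding cells 6, 17 and 50 had 4, 20 and 240 counts and the other 3 had 0. In DP 2 the cdh5-holding cells 7, 12, 19 and 27 had 15, 8, 12 and 14 counts and cell 35 had 0. Of the 15 cdh5-lacking cells with postnb, 12 had 1 or 2 counts, and DP 1 cell 27 had 43. None of the 7 cdh5-holding cells with postnb had fewer than 4. The summed level was 249 against 5.63 CPM in DP 1, a ratio of 44.3 (32.3 to 62.0). In DP 2 it was 70.3 against 9.10 CPM, a ratio of 7.72 (4.58 to 13.4). These intervals cover counting error only, not the spread between cells. Cell 50 gave 90.9% of the 264 postnb counts in cdh5-holding DP 1 cells. Without cell 50, the deepest cdh5-holding cell of DP 1, the DP 1 levels were 31.3 against 5.63 CPM. Without the deepest cdh5-holding cell of DP 2, the DP 2 levels were 116 against 9.10 CPM.

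DP 1 cell 27 was the cdh5-lacking cell with the most postnb. Scaled to the total of each cell, its postnb level was also the highest of all kept cells. Its 47194 counts included 13 of lamb1a, none of the other 6 members, 2 of 18 endothelial markers and 4 of 10 mesenchyme and fibroblast markers. The same cell had 3 kdrl and 13 spi2 counts, and 45 counts of myb, a stem and progenitor marker. It held 4 of 7 stem and progenitor markers and 3 of 8 neutrophil markers. The postnb-holding, cdh5-holding cells had 6 to 13 of the 18 endothelial markers. The 43 counts of cell 27 were most of the 46 found in cdh5-lacking DP 1 cells.

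**Figure D3:**
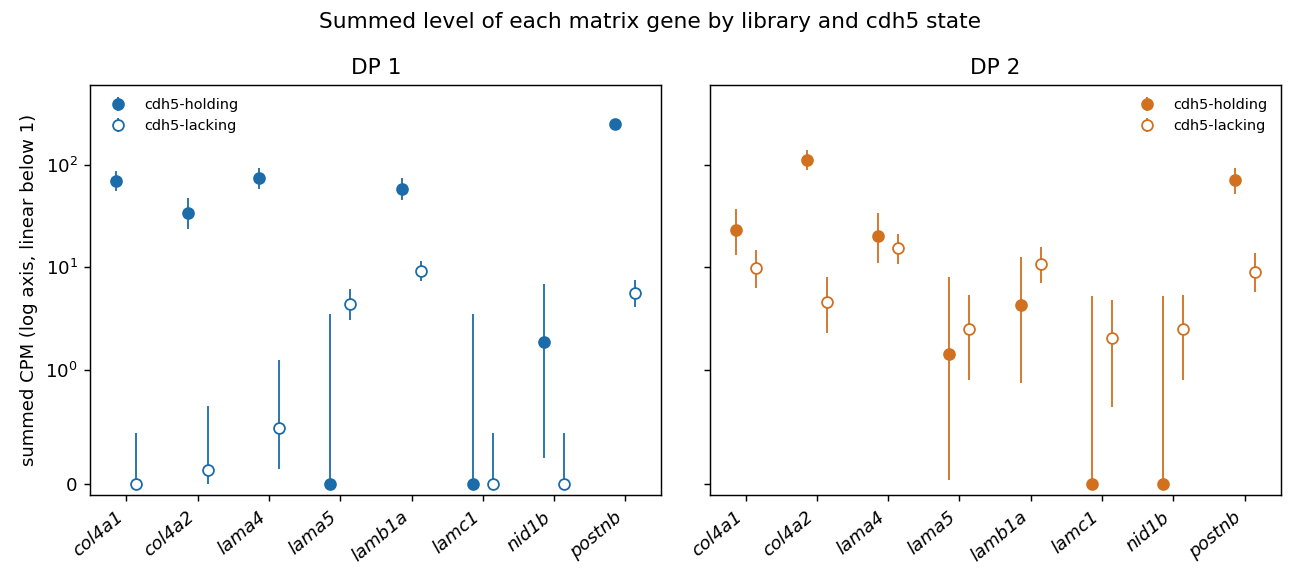
Summed level of each matrix gene in CPM (log axis, linear below 1) for cdh5-holding (filled) and cdh5-lacking (open) cells of DP 1 and DP 2, with exact Poisson 95% intervals for counting error. col4a1, col4a2, lama4 and postnb have the higher summed level in cdh5-holding cells in both libraries, with overlapping intervals in DP 2 for lama4 and col4a1.

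The counts were then summed per library and cdh5 state, which gives 4 sums, and tested across all genes with edgeR's quasi-likelihood test with the library as a block and 1 residual degree of freedom. Of 7159 tested genes 0 were called at an adjusted p under 0.05 (0%), so 0 members were called. The smallest adjusted p over all genes was 0.517. At an unadjusted p under 0.05, 636 genes passed, of which 372 were higher in cdh5-holding cells (5.2% of tested genes). The median log2 difference over all tested genes was -0.12, and -0.03 with DESeq2 size factors. lama5, lamc1 and nid1b did not pass the filter on low counts.

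In that fit col4a2 differed by 5.21 ± 1.005 on the log2 scale (SE, cdh5-holding minus cdh5-lacking, edgeR adjusted p = 0.517). postnb differed by 4.52 ± 0.86 (edgeR adjusted p = 0.517) and col4a1 by 4.08 ± 1.65 (adjusted p = 0.544). Of these, col4a2 and postnb were among the 372 genes at an unadjusted p under 0.05. The laminin chains had 3.30 ± 1.55 for lama4 (edgeR adjusted p = 0.561) and 1.70 ± 1.01 for lamb1a (adjusted p = 0.598). The 5 members that passed the filter could do so through the group where they were high, so their number and median say nothing about the other 3. The call depends on the test. The legacy form of the quasi-likelihood test called 89 genes, 42 of them higher (0.587% of tested genes), with col4a2 at an adjusted p of 0.0232 and postnb at 0.00587 among the higher ones. DESeq2 called 98 genes, 69 of them higher (0.964%), with col4a2 at an adjusted p of 0.000792 and postnb at 0.00103. lama4, lamb1a and col4a1 were called by neither.

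The members were held together in a small number of cells. Of the 11 cdh5-holding cells 7 held 3 or more of the 8 genes, and of the 77 cdh5-lacking cells 3 did. The median number held was 2.5 against 0 in DP 1 and 3 against 1 in DP 2. In thinned cells 7 of 9 cdh5-holding cells and 2 of 70 cdh5-lacking cells held 2 or more. The fullest sets were in DP 1 cell 50, with col4a1, col4a2, lama4, lamb1a, nid1b and postnb, and in DP 2 cell 5, with lamc1 in place of nid1b. DP 2 cell 5 had 0 cdh5 counts in 122141 but held kdrl (11 counts), spi2 (39 counts) and 11 of the 18 endothelial markers.

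**Figure D4:**
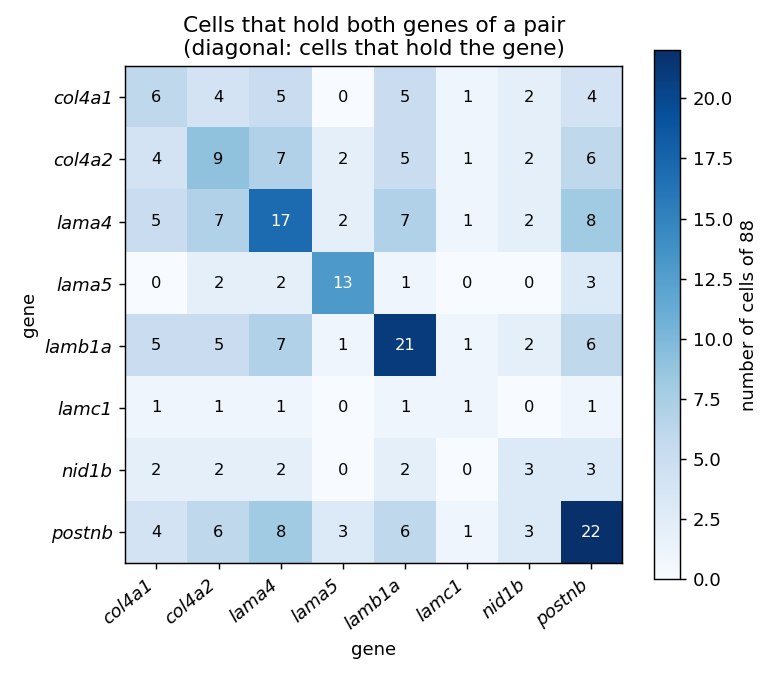
Number of kept cells that hold both genes of each pair of matrix genes (colour scale and figures, of 88 cells), with the number of cells that hold each gene on the diagonal. col4a2 shares 7 of its 9 cells with lama4, which 19.3% of all cells hold. lama5, which 14.8% of all cells hold, shares 0 to 3 of its 13 cells with each other gene.

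The laminin chains lama4 and lamb1a were each held by 5 of the 6 col4a1 cells. Of the 9 col4a2 cells 7 held lama4 and 5 held lamb1a, out of 17 cells with lama4 and 21 with lamb1a. The overlap of col4a2 with lama4 gave the highest Jaccard index of any pair (shared cells over cells holding either), 0.368, and col4a1 with col4a2 gave 0.364. postnb shared 8 cells with lama4 and 6 with col4a2. lama5 shared 0 cells with col4a1, 1 with lamb1a, 2 with col4a2, 2 with lama4 and 3 with postnb. It was held by 14.8% of all cells, against 22.2% of col4a2, 13.6% of postnb, 11.8% of lama4 and 4.76% of lamb1a cells. These shares lie on both sides of 14.8%, and no difference was tested. Deep cells hold more genes of any kind. In thinned cells the index was 0.333 for col4a2 with lama4, 0.308 for lama4 with postnb and 0.125 for col4a1 with col4a2, which shared 1 cell.

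Not every cdh5-holding cell held matrix genes. DP 1 cell 51, with 1 cdh5 count and 3 of the 18 endothelial markers, had none of the 8 in 183812 counts. DP 1 cell 55 had 17 cdh5 counts but 0 of kdrl and spi2, 1 of the 18 markers and none of the 8 genes in 71505 counts. The other 9 cdh5-holding cells had 6 to 13 of the 18 markers and held 1 to 6 members.

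The number of members a cell held was also set beside 18 endothelial markers that do not include cdh5. The 9 cells with 8 or more of these markers held 2 to 6 members (median 3), and 8 of them held 3 or more. Of 39 cells with 0 to 2 markers 14 held a member, and of 35 cells with 3 to 5 markers 22 did. In thinned cells these were 11 of 56 and 3 of 15, with no rise between these 2 lowest ranges. The 4 thinned cells with 6 or 7 markers held 2 or 3 members (median 2.5). The 4 with 8 or more held 2 to 4 (median 3.5). Before thinning, the 5 cells with 6 or 7 markers held 1 member each. These ranges were chosen after the values were seen. Across cells, Spearman's rho between the number of markers and of members was 0.43 in 53 DP 1 cells and 0.69 in 35 DP 2 cells. In thinned cells it was 0.22 in 50 and 0.49 in 29. These are descriptions, since cells of 1 library share its preparation and both numbers grow with depth.

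**Figure D5:**
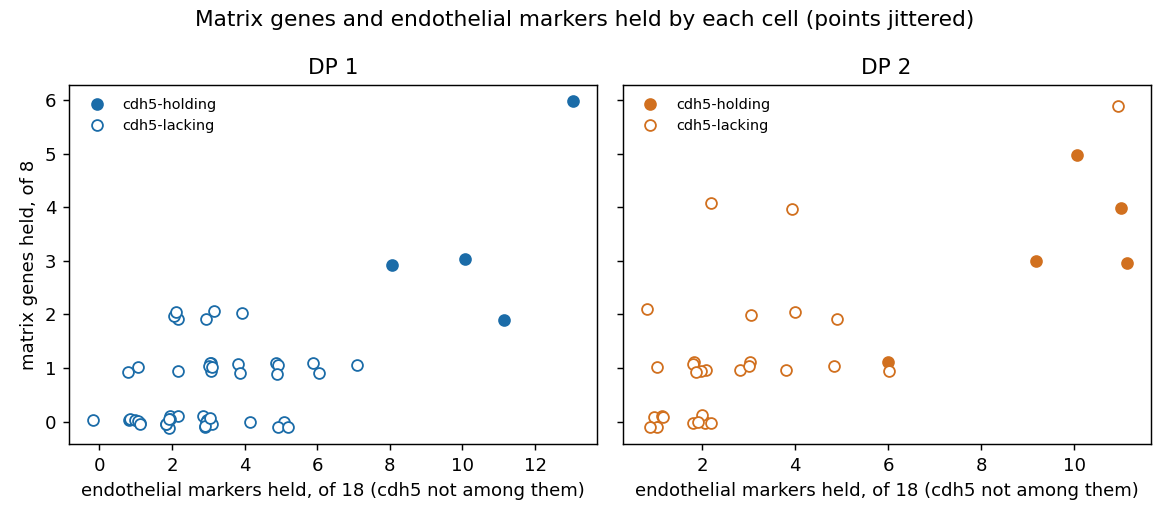
Number of the 8 matrix genes held (vertical) against number of 18 endothelial markers held (horizontal) for each kept cell of DP 1 and DP 2, filled for cdh5-holding and open for cdh5-lacking cells, with points jittered. The 9 cells with 8 or more markers hold 2 to 6 matrix genes, and the open point among them is DP 2 cell 5.

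Beside these genes, the marker levels of the 2 states differed as well. The summed level of the 18 endothelial markers was 1107 CPM in cdh5-holding and 246 CPM in cdh5-lacking DP 1 cells, and 1418 and 346 CPM in DP 2. Of 13 tested markers, 11 had a positive log2 difference and 0 were called. In the edgeR fit 8 were higher at an unadjusted p under 0.05 (kdrl, pecam1, tie1, flt1, egfl7, clec14a, esama and plvapb). Of all 7159 tested genes 372 were (5.2%). Genes of any list could pass the low-count filter through the group where they were high. The numbers and medians given here and below for a list thus say nothing about its untested genes. The 8 neutrophil markers summed to 1913 against 7160 CPM in DP 1 and 420 against 5115 CPM in DP 2. All 8 had a negative log2 difference, 7 at an unadjusted p under 0.05, and 0 were called. Of all 7159 tested genes, 264 were lower in cdh5-holding cells at an unadjusted p under 0.05 in the same edgeR fit. Per cell, the median neutrophil level was 470 against 639 CPM in DP 1 and 293 against 606 CPM in DP 2. Single cdh5-lacking cells reached 50634 CPM in DP 1 and 49448 CPM in DP 2, and the sums differ more than the medians do.

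Markers of other cell types were also found. The 8 skeletal muscle markers set DP 2 apart from DP 1 in both states, with 222 and 224 CPM in cdh5-holding and cdh5-lacking DP 2 cells against 17.95 and 15.05 CPM in DP 1. The muscle actin gene actc1b was held by 33 of 35 DP 2 cells and 9 of 53 DP 1 cells. DP 2 also had 9 cdh5-lacking cells with 1 or 2 postnb counts, against 3 in DP 1. The mural markers summed to 61.4 against 30.1 CPM in DP 1 and 38.7 against 11.2 CPM in DP 2. The mural genes with the most counts were myh11a (289 counts, log2 difference 0.63 ± 0.67) and notch3 (71 counts, 2.18 ± 0.92), and 0 were called. The defining mural gene pdgfrb had 5 counts in 1 cell, and acta2 and abcc9 had 0 in all cells. The mesenchyme and fibroblast markers summed to 44.4 against 33.5 CPM in DP 1 and 66.0 against 38.5 CPM in DP 2. Those with the most counts were tcf15 (274 counts, log2 difference -2.27 ± 1.14), foxc1b (65 counts, 2.08 ± 1.09) and col5a1 (60 counts, not tested). Of this list 0 were called, and pdgfra had 6 counts in 1 cell. The epidermal markers summed to 0.945 against 19.9 CPM in DP 1 and 4.30 against 6.21 CPM in DP 2. The part of such cells, or of RNA from them, in the levels of the matrix genes was not tested.

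The genes most like the collagen pair were sought in the 79 thinned cells, of which 8 held col4a1 or col4a2. Likeness was the Jaccard index of the cells holding a gene with these 8 cells, over genes held by 5 or more cells, members and cdh5 left out. The closest was adgrl3.1, an adhesion G protein-coupled receptor gene, with 7 of its 9 cells shared (Jaccard 0.70). It was followed by fstl1a, with all 5 of its cells shared (0.625), and by cfd, with 6 of 8 shared (0.60). efnb2a, which encodes an ephrin ligand of arterial endothelium, shared 6 of 8 cells (0.60), and the sort gene kdrl shared 7 of 11 (0.583). Pearson's r of log2(CPM + 1) with the summed pair over the same 79 cells was between 0.69 and 0.78 for these 5 genes. The cells share library and preparation, so this is a description.

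Of 25 other basement membrane genes, 4 passed the filter and 0 were called, with 3 positive and 1 negative log2 difference (median 0.71). col18a1a, a collagen XVIII gene, was held by 3 of 6 and 4 of 5 cdh5-holding cells and by 8 of 47 and 6 of 30 cdh5-lacking cells in DP 1 and DP 2. Its level was 35.9 against 8.32 CPM in DP 1 and 37.3 against 9.93 CPM in DP 2 (log2 difference 1.84 ± 0.79, edgeR adjusted p = 0.548). sparc, which encodes a collagen-binding matricellular protein, was at 52.0 against 15.4 CPM in DP 1 and 1.43 against 4.96 CPM in DP 2. The type IV collagen chain col4a4 was at 12.3 against 8.20 CPM in DP 1 and 1.43 against 17.0 CPM in DP 2. For sparc and col4a4 the levels before thinning differ in direction between the libraries, as they did for lamb1a. Each 1.43 CPM in cdh5-holding DP 2 cells stands for 1 count. col4a4 was held by 1 of 6 cdh5-holding cells in DP 1 and 1 of 5 in DP 2, so no direction is established.

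Of 20 genes of interstitial and provisional matrix, 4 were tested and 0 called (3 positive and 1 negative log2 difference, median 0.53). The fibrillar collagen gene col1a1b was at 60.5 against 5.87 CPM in DP 1 and 51.6 against 5.38 CPM in DP 2, a log2 difference of 3.14 ± 0.68 (edgeR adjusted p = 0.517). All 64 counts of the cdh5-holding DP 1 cells came from 1 cell, and 35 of the 36 counts of the cdh5-holding DP 2 cells from another. Of the others with the highest counts, col5a3a had -0.65 ± 1.49 and fn1b, a fibronectin gene, 0.99 ± 1.41.

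No gene of collagen processing, matrix receptors or matrix turnover was called. Of 15 collagen processing genes 5 were tested and 0 called, with 2 positive and 3 negative log2 differences (median -0.18). The prolyl hydroxylase subunit genes p4hb and p4ha1b had -0.18 ± 0.67 and -0.64 ± 0.87, and mia3, which encodes a factor for collagen export from the endoplasmic reticulum, had 1.37 ± 0.66. Of 20 laminin and collagen receptor genes 1 was tested, dag1, the dystroglycan gene, at 0.12 ± 1.22. Of 12 matrix turnover genes 3 were tested and 0 called (median -0.55). The metalloproteinase inhibitor gene timp2b was at 126 against 9.30 CPM in DP 1 and 125 against 55.4 CPM in DP 2, with a log2 difference of 2.23 ± 0.84 (edgeR adjusted p = 0.544). mmp9, a metalloproteinase gene also listed as a neutrophil marker, had -5.45 ± 1.82 (adjusted p = 0.544), and adamts9 had -0.55 ± 2.42.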

How the data were processed

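Single-cell STRT-seq libraries of sorted cells were made with KAPA Hyper Prep chemistry, per the labels' protocols. Trimmomatic 0.36, HISAT2 2.1.0 and the build GRCz11 are named in the submitters' processing notes, which give no roles. The deposited values are whole-number counts per gene and cell, and no rescaling preceded the sums. Not given in the sources used here are the counting tool, the use of strand and the collapsing of identical molecules. The nonzero entries had a median of 8.

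The members and gene lists were chosen with earlier results of these data known. Cells with 500 or more genes were kept (88 of 93). The cell table lists 93 DP 2 cells, of which 37 have counts, and 1 DP 1 cell with counts is not listed. No doublet caller was run on singly sorted cells. For shares at equal totals, counts were drawn down at random to 20217 per cell (thinning, at percentile 10 of the totals). This left out 9 cells (3 of DP 1 and 6 of DP 2, 1 of the 9 cdh5-holding). The draw was made 1 time, so a gene at low counts could be kept or lost by that draw. At equal totals the median number of genes still differed, 2538 in DP 1 and 1978 in DP 2. The cdh5 state of thinned cells was set anew from their thinned counts. This gave 5 of 50 cdh5-holding cells in DP 1 and 4 of 29 in DP 2. A cell that held cdh5 before thinning could thus count as cdh5-lacking after it.

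Raw counts were summed per library and cdh5 state and tested with edgeR 4.0.16 in R 4.3.3 (TMM, filterByExpr, quasi-likelihood, two-sided, library as block, cdh5 left out) with Benjamini-Hochberg adjustment. DESeq2 1.42.0 was an alternative. Each SE is the absolute log2 difference divided by the square root of F. Intervals are exact 95% Poisson or Clopper-Pearson intervals, which cover counting error only. Floors for a count of 0 are 3 counts.

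The text names the 8 members, cdh5, kdrl and spi2, up to 3 genes of each matrix list by summed count, and the 5 genes most like the collagen pair. The cells singled out, lamb4, lama1, lamb1b, the marker genes and the nidogen genes nid2a and nid2b were chosen after their values were seen. RefSeq (GRCz12tu) matched 8 of 8 members and was used for names and neighbours only. Sequences and promoters are not analysed here.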

Additional observations from a re-analysis of the deposited data

How the results depend on the processing

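The number of genes called was 0 in the main edgeR fit, 98 with DESeq2, 89 with the legacy quasi-likelihood form and 1 without the library block. It was 0 with DESeq2 size factors, without the low-count filter, with 1000 genes per cell and with cdh5 state set at 3 counts. It was also 0 in thinned cells, with state set by endothelial markers in thinned cells and without the deepest cdh5-holding cells. The number of members called was 0, and 2 with DESeq2 and 2 with the legacy form (col4a2 and postnb). With either library left out, the measure was the log2 ratio of summed CPM in the other library, not the fit. For lamb1a, at 1.70 in the fit, it was 2.66 in DP 1 and -1.32 in DP 2. In the same order it was 7.57 and 1.21 for col4a1, with a floor of 3 counts in DP 1, and 8.12 and 4.62 for col4a2. It was 7.23 and 0.39 for lama4 and 5.47 and 2.95 for postnb. Of the 5 tested members lamb1a alone changed sign, and the cause was not tested. In the fit without the deepest cdh5-holding cell of each library, the log2 difference was 1.95 for col4a1, 2.80 for postnb, 5.50 for col4a2 and 3.46 for lama4. The share of cells with a member was 56.8%, 27.8% in thinned cells and 31.8% from 3 counts on. Cells that held both collagens numbered 4, and 1 in thinned cells, with 1 to 3 when either library was left out. With 1 library left out the fit has no residual degrees of freedom, so those are values with no test. With state set by 3 or more endothelial markers in thinned cells, postnb was the member tested, at 2.04. Depth and state definition both differ there from the main fit. Low counts limit lamc1, nid1b and lama5, and the part of depth in them was not tested. The number of cdh5-holding cells, 11, limits all comparisons.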

Other observations

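The nidogen genes nid2a and nid2b, related to nid1b, were seen only in cells without cdh5. nid2a was held by 12 of 77 cdh5-lacking cells and by 0 of 11 cdh5-holding cells, which allows a share of up to 27.3%. Its level in cdh5-lacking cells was 10.8 CPM in DP 1 and 0.827 CPM in DP 2. nid2b was held by 5 of 77 cdh5-lacking cells and 0 of 11 cdh5-holding cells. With 11 cdh5-holding cells no difference in these shares was established, and no test was made.

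The 5 cells removed for having fewer than 500 genes had 152 to 1019 counts. They held 0 cdh5 counts and 1 count of the 8 matrix genes, in DP 2 cell 28.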
